A study of Homo sapiens with 6 samples.

Results

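Nonsense-mediated decay is the surveillance pathway that degrades messenger RNAs on which translation stops too early, such as those with a stop codon upstream of an exon junction. The RNA helicase UPF1 is its central factor. UPF2 and the 2 related proteins UPF3A and UPF3B link UPF1 to the exon junction complex, the kinase SMG1 phosphorylates UPF1 under the control of SMG8 and SMG9, and SMG5 and SMG6 are recruited to phosphorylated UPF1, where SMG6 cuts the RNA. Several of these factors are known to be encoded by transcripts that are themselves substrates of the pathway, and an RNA that keeps an intron is a typical substrate once it reaches the ribosome.

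The genes described here are these 9 factors, UPF1, UPF2, UPF3A, UPF3B, SMG1, SMG5, SMG6, SMG8 and SMG9. Their introns were taken by position: every listed intron that lies inside 1 of the 9 genes on its strand was a member, which gave 178 of the 241593 introns listed. SMG1 held 60 of them, UPF1 23, SMG5 21, UPF2 20, SMG6 20, SMG9 12, UPF3B 11, UPF3A 9 and SMG8 2. Introns are numbered from the 5′ end of each gene in the order of the listed introns, so that alternative introns that overlap have a number each.

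RNA was sequenced from K562, an established human leukaemia cell line with erythroid and megakaryocytic features, transduced with an shRNA control (Con_sh) or with an shRNA against ZRSR2, of which there were 2, called sh1 and sh2. ZRSR2 acts in the minor spliceosome, where it helps to find the 3′ splice site of introns of the U12 type. Each group held 2 libraries, numbered here by experiment, and the labels did not say that they came from separate cultures, so p-values measure only the spread between these libraries. All groups share the K562 background, and the labels named no clone, selection or time after transduction.

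The libraries held 82986327 to 101120454 spliced reads and 4387311 to 5199693 reads across an exon-intron boundary, with the most boundary reads with sh2 replicate 1. ZRSR2 itself stood at 27.5 and 23.2 CPM (spliced reads of a gene scaled to library size) with the control shRNA, 10.6 and 10.6 with sh1 and 10.1 and 12.7 with sh2. Each of the 4 knockdown libraries lay below both controls, with a log2 fold change of -1.20 (SE 0.176) and an adjusted p of 0.51 in edgeR's quasi-likelihood test over all genes. The 11 K562 markers fixed for these cells were all detected, with a summed level of 4589 and 6268 CPM with the control shRNA, 11897 and 5785 with sh1 and 19725 and 9116 with sh2. The summed level of 8 markers of other cells was 174 to 178 CPM in the control and 129 to 156 in the knockdown, most of it from the epithelial marker EPCAM (85.0 to 123 CPM), while the B cell marker MS4A1 was at 0.51 or less and the monocyte marker CD14 at 0.22 or less. None of the 7 tested was called, and 3 had an unadjusted p under 0.05, all with a lower fitted level in the knockdown. The T cell marker CD3E stood at 9.74 and 4.14 CPM with the control shRNA and 1.04 to 3.67 in the knockdown, the endothelial marker PECAM1 at 33.7 and 23.2 against 15.9 to 20.6, and the collagen gene COL1A1 at 17.3 and 15.5 against 5.33 to 18.9. CD3E and PECAM1 lay below both controls in all 4 knockdown libraries, and COL1A1 overlapped. The part of these differences between libraries in the results below was not tested.

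Retention was followed for each intron as the percent of boundary reads over boundary reads plus 2 times the spliced reads. Of the 178 member introns, 177 averaged 20 or more reads, boundary and spliced, and were tested, the exception being intron 4 of SMG1, a long intron over an exon that is mostly included. With both shRNAs against the control, 2 of the 177 were more retained and 0 were less retained at an adjusted p of 0.05 (edgeR quasi-likelihood test over 134078 introns). Over all tested introns, 0.33% were called higher and 0.0209% lower in that comparison. Both called introns, number 8 and number 9, lie in UPF1. With sh1 alone, 1 member intron was called higher (UPF1 intron 8) and 0 lower, against 0.292% and 0.0104% of all introns. With sh2 alone, 2 were called higher (UPF1 introns 8 and 9) and 0 lower, against 0.266% and 0.0201%. Between sh1 and sh2, 0 member introns were called, against 0.0246% higher and 0.0097% lower among all introns, and 6 of the 177 had an unadjusted p under 0.05 (3.83% of all introns). Such a p was reached by 10 of the 177 with sh1 (4.09% of all introns) and by 10 with sh2 (4.5%). For both shRNAs against the control DESeq2 called 0 of the 177, against 0.154% higher and 0.00522% lower among all introns.

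**Figure D1:**
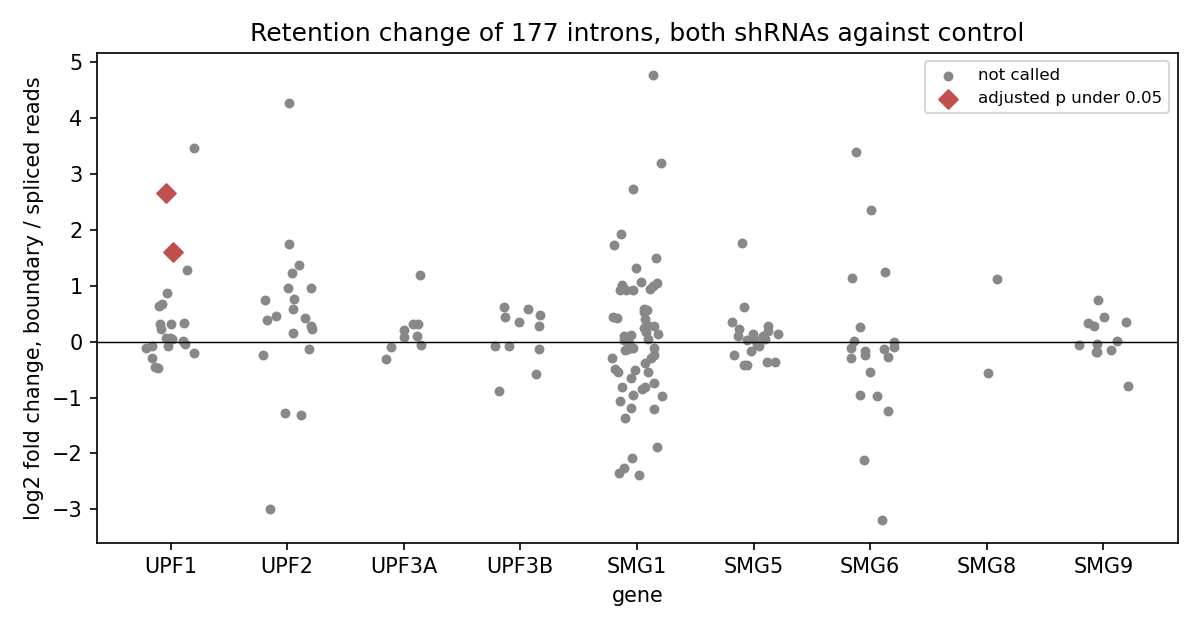
Change in retention of the 177 tested introns of the 9 genes. Each point is 1 intron, the x axis gives its gene and the y axis the fitted change (log2) in the boundary-to-spliced ratio for both shRNAs against the control; the 2 red diamonds, both in UPF1 at 2.66 and 1.60, are the introns with an adjusted p under 0.05, and the far grey points in SMG1, SMG6 and UPF2 rest on few boundary reads.

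UPF1 lies on chromosome 19 at 18831959-18868230 of GRCh38, on the plus strand, and no other gene of the RefSeq table overlaps it. Its intron 8, at 18853351-18854600 (1250 nt), is the intron named when these genes were chosen, with its change in these data already known, so its values describe it and are no independent evidence. Retention of intron 8 was 1.84% and 0.716% with the control shRNA, 10.9% and 4.77% with sh1 and 11.7% and 3.86% with sh2. All 4 knockdown libraries lay above both controls. Within each group, the control included, the library of experiment 1 was the higher, so this order was not particular to the knockdown. The means were 1.28% ± 0.797 (SD, n = 2) with the control shRNA, 7.83% ± 4.32 (SD, n = 2) with sh1 and 7.81% ± 5.57 (SD, n = 2) with sh2. The log2 fold change over both shRNAs was 2.66 (SE 0.396, edgeR adjusted p = 2.48e-08), with 2.69 (SE 0.449, adjusted p = 2.00e-06) for sh1 and 2.62 (SE 0.452, adjusted p = 8.05e-06) for sh2. The difference between the shRNAs was 0.07 (SE 0.424, adjusted p = 1). The call was lost with DESeq2 (2.69, adjusted p = 0.133), with the smaller boundary count doubled (2.73, adjusted p = 0.169) and among introns covered to at least 0.95 (2.66, adjusted p = 0.0725). These 3 settings also ended the call in each shRNA alone. Without control replicate 2, the library with the lowest retention, the change was 2.03 over both shRNAs with an adjusted p of 0.0393, but neither shRNA alone was called (sh1 2.06, adjusted p = 0.0861; sh2 1.99, adjusted p = 0.152). Nor was sh1 called without its replicate 1 (2.04, adjusted p = 0.101), or sh2 without its replicate 1 (1.73, adjusted p = 0.621).

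Reads crossed both ends of intron 8. At its 5′ boundary there were 16 and 9 reads with the control shRNA, 86 and 42 with sh1 and 120 and 42 with sh2. At its 3′ boundary there were 32 and 14 with the control shRNA, 133 and 98 with sh1 and 179 and 61 with sh2. The intron was covered over its whole length in all 6 libraries, and the counts at both boundaries were higher in each knockdown library than in both controls. Spliced reads across intron 8 numbered 1278 and 1594 with the control shRNA, 897 and 1397 with sh1 and 1123 and 1281 with sh2, so the spliced form remained the main product in every library.

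Intron 8 stood in a run of 4 neighbouring introns whose retention was high in the same libraries. Intron 9 (18854710-18854878, 169 nt), separated from it by an exon of 109 nt, was retained at 1.41% and 1.24% with the control shRNA, 4.43% and 2.05% with sh1 and 7.05% and 3.44% with sh2. Again all 4 knockdown libraries lay above both controls, with means of 1.33% ± 0.119 (SD, n = 2), 3.24% ± 1.69 (SD, n = 2) and 5.25% ± 2.55 (SD, n = 2). Its log2 fold change was 1.60 over both shRNAs (SE 0.392, edgeR adjusted p = 0.0154), 1.97 with sh2 (SE 0.446, adjusted p = 0.00508) and 1.23 with sh1, which was not called (SE 0.451, adjusted p = 0.736). At its 5′ boundary the control had 2 and 1 reads and the knockdown libraries 43, 16, 85 and 30, while its 3′ boundary had 35 and 38 reads in the control and 52, 46, 84 and 57 in the knockdown. The controls thus had reads almost only at the 3′ end, and covered 0.432 and 0.935 of the intron, against its full length in the 4 knockdown libraries. With the smaller boundary count doubled, intron 9 stood at 4.81 over both shRNAs (adjusted p = 0.00111) and was called with sh1 too (4.32, adjusted p = 0.0447). The call over both shRNAs was lost with a minimum of 50 reads (adjusted p = 0.0725), with DESeq2 (adjusted p = 0.849) and when control replicate 1, control replicate 2, sh1 replicate 1 or sh2 replicate 1 was left out (adjusted p = 0.268, 0.601, 0.402 and 0.460).

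Upstream of intron 8, across an exon of 99 nt, intron 7 (18853105-18853251, 147 nt) was retained at 3.70% and 1.99% with the control shRNA, 8.98% and 3.09% with sh1 and 11.7% and 4.73% with sh2. The sh1 replicate 2 value lay between the controls, and the other knockdown libraries lay above them. Within each experiment number, both knockdown libraries were above the control. Its log2 fold change of 1.28 (SE 0.389) did not pass the test (edgeR adjusted p = 0.204), but did without sh1 replicate 2 (1.67, adjusted p = 0.0122) and without sh2 replicate 2 (1.62, adjusted p = 0.0356). Intron 6 (18852297-18852986, 690 nt) stood at 5.18% and 4.62% with the control shRNA, 9.99% and 4.88% with sh1 and 14.3% and 7.25% with sh2, with a log2 fold change of 0.86 (SE 0.368, adjusted p = 0.903). It had the highest mean retention of the UPF1 introns, 7.71% over the 6 libraries. Next to these 4 introns lie introns 5 and 10, and in both control libraries intron 10 stood above introns 8 and 9. Intron 5 (18850869-18852134), 162 nt upstream of intron 6, was retained at 1.22% and 1.83% in the control and 1.49% to 2.02% in the knockdown, and intron 10 (18855039-18855123, 85 nt), 160 nt downstream of intron 9, at 3.63% and 1.85% in the control and 1.54% to 3.78% in the knockdown. The knockdown values of both flanking introns overlapped those of the control, with log2 fold changes of 0.23 (SE 0.419) and -0.11 (SE 0.393).

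**Figure D2:**
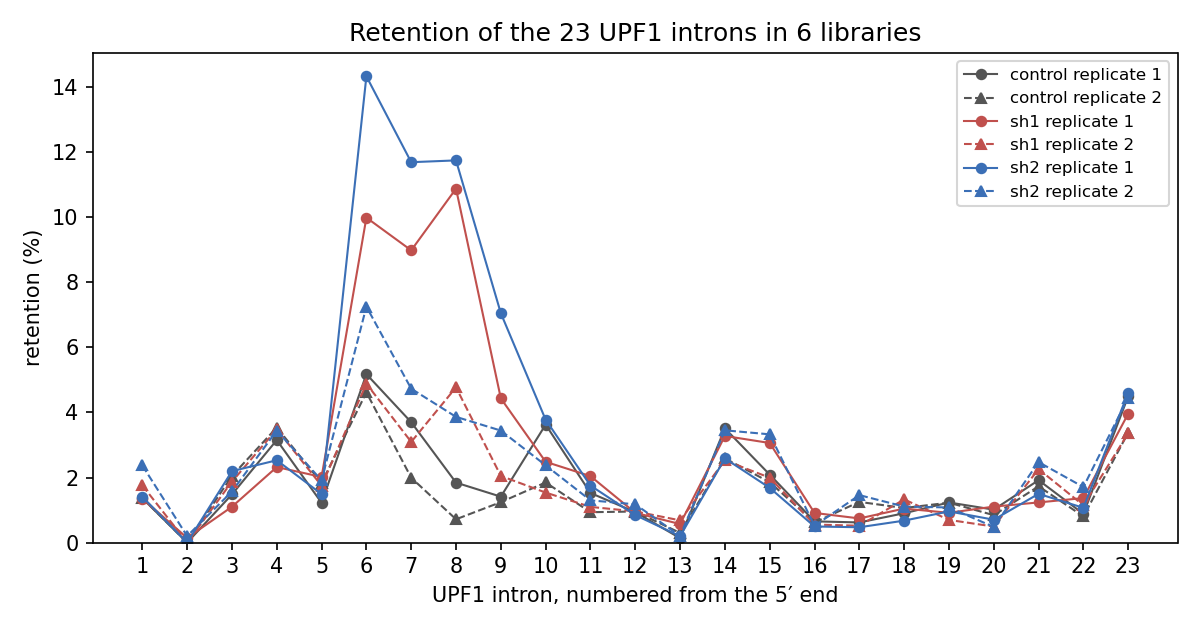
Retention along UPF1. The x axis numbers the 23 introns from the 5′ end, the y axis gives retention in percent, and each line is 1 of the 6 libraries (grey control, red sh1, blue sh2; circles and full lines replicate 1, triangles and dashed lines replicate 2). The libraries part at introns 6 to 9, where sh1 replicate 1 and sh2 replicate 1 reach 10.9% and 14.3%, and run close together elsewhere.

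The pooled reads of introns 6 to 9 gave a retention of 2.87% and 2.06% with the control shRNA, 8.44% and 3.68% with sh1 and 11.2% and 4.74% with sh2. The other 19 UPF1 introns together gave 1.66% and 1.52% with the control shRNA, 1.65% and 1.49% with sh1 and 1.54% and 1.83% with sh2. The knockdown libraries lay above both controls in the run, which was picked out after its values were seen, while the rest of the gene overlapped. Of those 19, intron 22 lay higher in all 4 knockdown libraries than in both controls (0.804% and 0.882% against 1.07% to 1.71%) and intron 19 lower (1.23% in both controls against 0.697% to 1.08%), and neither was called.

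The spliced reads went the other way at introns 8 and 9, but not in every library at introns 6 and 7. Relative to the mean spliced count of the 19 other introns in the same library, intron 8 stood at 1.26 and 1.27 with the control shRNA, 0.988 and 1.15 with sh1 and 1.05 and 1.22 with sh2. Intron 9 stood at 1.28 and 1.23 with the control shRNA, 1.13 and 1.22 with sh1 and 1.05 and 1.16 with sh2. In both introns the 4 knockdown libraries lay below the 2 controls, by the most in the replicate 1 libraries. Intron 7 was lowest in sh1 replicate 1 (0.765) and sh2 replicate 1 (0.887), but the replicate 2 libraries (1.02 and 0.968) lay above both controls (0.951 and 0.939). Intron 6 ranged from 0.923 to 1.04 in the knockdown and from 0.977 to 1.05 with the control shRNA, which overlapped. These ratios are given as a description, since spliced reads also enter the retention test.

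**Figure D3:**
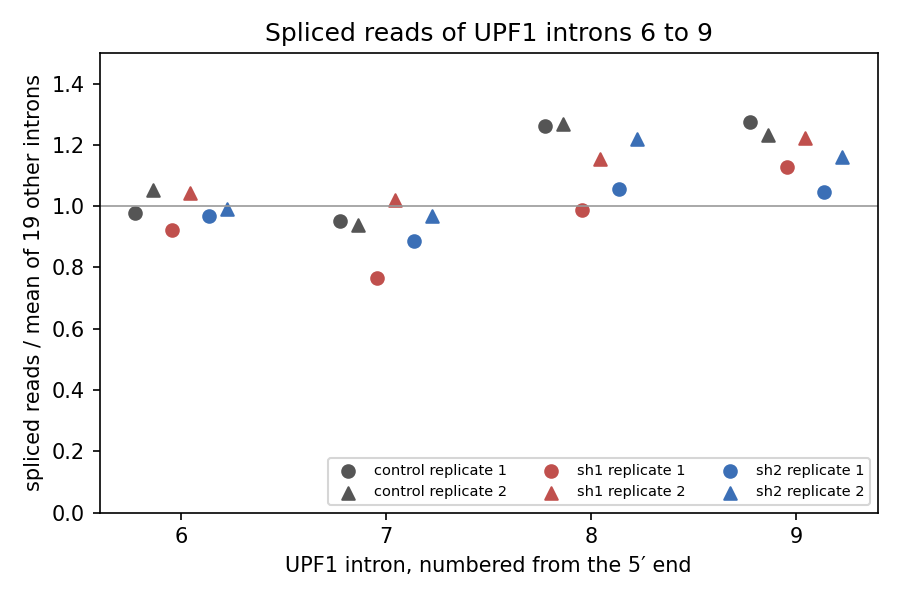
Spliced reads across UPF1 introns 6 to 9. The x axis gives the intron, the y axis its spliced reads divided by the mean of the 19 other UPF1 introns in the same library, and each point is 1 library (grey control, red sh1, blue sh2; circles replicate 1, triangles replicate 2). At introns 8 and 9 the control points, at 1.23 to 1.28, are above all knockdown points.

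The 5 introns of other genes whose retention over the 6 libraries was most like that of UPF1 intron 8 lay in XRCC5, TULP4, INSIG1, RNF170 and DERL2. Likeness was the Euclidean distance of log2(retention percent + 0.5), and these distances ran from 0.775 to 0.924. The nearest, in XRCC5, which encodes a subunit of the Ku DNA repair complex, lies on chromosome 2 at 216116843-216117745. It was retained at 1.44% and 0.742% with the control shRNA, 16.1% and 5.26% with sh1 and 8.56% and 3.43% with sh2 (log2 fold change 2.88, edgeR adjusted p = 3.87e-13). The introns of DERL2 (2.82, adjusted p = 7.09e-07) and INSIG1 (2.04, adjusted p = 0.00117) were also called higher, while those of RNF170 (2.33, adjusted p = 0.44) and TULP4 (2.16, adjusted p = 1) were not. Selection by this distance fixes their shape, so it says nothing beyond their order.

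Outside UPF1, none of the 154 tested introns of the other 8 genes was called in any of the 4 comparisons by edgeR. Over all 177, 10 had an unadjusted p under 0.05 for both shRNAs against the control, 8 of them higher and 2 lower, against 4.44% of all tested introns. Retention was above both controls in all 4 knockdown libraries for 14 of the 177 (7.91%, against 7.28% of all introns) and below for 7 (3.95%, against 4.11%). Without UPF1 the counts were 11 of 154 (7.14%) above and 6 of 154 (3.90%) below. The median log2 fold change was 0.06 over the members and 0.08 over all tested introns, so as a group these introns sat at the background.

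UPF2, the adaptor between UPF1 and the UPF3 proteins (chromosome 10, 11920022-12043170, minus strand), had a pooled retention over its 20 introns of 0.651% and 0.691% with the control shRNA, 0.715% and 0.899% with sh1 and 1.25% and 1.15% with sh2. All 4 knockdown libraries lay above both controls, and the sh2 pair above the sh1 pair. The means were 0.671% ± 0.0284 (SD, n = 2), 0.807% ± 0.130 (SD, n = 2) and 1.20% ± 0.0678 (SD, n = 2). In 5 of its 20 introns (25%, against 7.28% of all tested introns) all knockdown libraries exceeded both controls. In 1 (5%, against 4.11%) they lay below. The median log2 fold change was 0.44, against 0.08 over all tested introns. Over all tested introns the median was 0.022 for sh1 and 0.161 for sh2, so sh2 stood above sh1 there as well. Intron 2 (12014185-12028744) stood at 1.91% and 2.69% with the control shRNA, 3.02% and 4.25% with sh1 and 4.84% and 5.88% with sh2, and intron 20 (11921308-11929864), the last, at 1.98% and 1.40%, 4.08% and 2.24%, and 5.04% and 4.85%. These rest on 7 to 26 boundary reads per library, and the log2 fold changes of 0.95 (SE 0.651) and 1.23 (SE 0.597) both had an adjusted p of 1 in edgeR. The UPF2 intron with the smallest p was number 15 (11943169-11948368), with 0 and 0 boundary reads in the control and 1, 3, 4 and 2 in the knockdown (unadjusted p = 0.0178, adjusted p = 0.89, edgeR).

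UPF3A, a paralogue of UPF3B that binds UPF2 (chromosome 13, 114281601-114305817, plus strand), was the most retained of the 9 genes in every library. Its pooled retention was 10.5% and 8.60% with the control shRNA, 9.74% and 8.67% with sh1 and 11.7% and 8.66% with sh2, and the groups overlapped. The level came from its 5′ introns, of which the 2 that start at 114282944 overlap and so share reads. The pooled value holds both. Intron 1 (114281847-114282020, 174 nt) was retained at 30% and 20.04% with the control shRNA, 27.5% and 25.1% with sh1 and 22.7% and 19.04% with sh2, and introns 2, 3 and 5 at 13.9% to 28.9%. None of these passed the test (log2 fold changes of -0.09, -0.06, 0.21 and 0.10, edgeR adjusted p = 1 for each). Its intron with the smallest p, number 7 (114291793-114298839), stood at 0.215% and 0.342% in the control and 0.373% to 1.56% in the knockdown, with a log2 fold change of 1.19 (SE 0.750, adjusted p = 1).

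UPF3B, on the X chromosome (119805311-119852963, minus strand), had a pooled retention of 2.47% and 1.66% with the control shRNA, 2.56% and 1.60% with sh1 and 2.89% and 2.34% with sh2, with the groups overlapping. None of its 11 introns was above or below both controls in all 4 knockdown libraries. Its intron 4 (119843302-119845197) had the smallest p, with a log2 fold change of -0.89 (SE 0.741, edgeR adjusted p = 1).

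SMG1, the kinase of UPF1 (chromosome 16, 18804860-18926408, minus strand), had a pooled retention of 1.35% and 1.72% with the control shRNA, 1.42% and 1.41% with sh1 and 2.09% and 1.75% with sh2. In 2 of its 59 tested introns (3.39%, against 7.28% of all tested introns) all knockdown libraries lay above both controls and in 3 (5.08%, against 4.11%) below. Its intron 7 (18889586-18890862) had the smallest p: boundary reads were found only in sh1 replicate 1 (5) and sh2 replicate 2 (7), and retention was 3.55% and 4.09% there and 0 in the other 4 libraries (edgeR adjusted p = 0.888). Near-identical copies of SMG1 lie elsewhere on the same chromosome, so its counts are uncertain.

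SMG8 and SMG9 form the complex that restrains SMG1. SMG8 (chromosome 17, 59210035-59215230, plus strand) has only 2 listed introns. Its intron 2 (59213602-59214804) was retained at 7.89% and 6.74% with the control shRNA, 4.44% and 4.09% with sh1 and 5.33% and 6.76% with sh2. The sh1 values were the lowest, and 1 sh2 library fell between the controls (log2 fold change -0.55, SE 0.515, edgeR adjusted p = 1). SMG9 (chromosome 19, 43727983-43754962, minus strand) had a pooled retention of 4.39% and 2.97% with the control shRNA, 3.85% and 2.45% with sh1 and 5.16% and 3.58% with sh2. Its intron 9 (43734496-43737596) was its most retained, at 15.7% and 11.0% with the control shRNA, 16.4% and 5.87% with sh1 and 20.3% and 12.5% with sh2. In each group the replicate 1 library was the higher, and the groups overlapped. Its intron 5 (43744885-43747441) had the smallest p, at -0.80 (SE 0.608, adjusted p = 1).

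The effectors SMG5 and SMG6 showed no called intron. SMG5 (chromosome 1, 156249224-156291516, minus strand), the adaptor that brings in deadenylation and decapping enzymes, had a pooled retention of 2.18% and 1.99% with the control shRNA, 2.53% and 1.83% with sh1 and 2.36% and 2.39% with sh2. Its intron 20 (156250997-156251402) was retained at 14.7% and 13.1% with the control shRNA, 21.7% and 9.49% with sh1 and 17.5% and 13.7% with sh2, which overlapped (log2 fold change 0.14, SE 0.351, edgeR adjusted p = 1). Its intron 7 (156268416-156272319) had the smallest p, at 1.76 (SE 1.07, adjusted p = 1), and held 0 to 6 boundary reads per library. SMG6, the endonuclease (chromosome 17, 2059839-2303785, minus strand), had a pooled retention of 1.43% and 0.891% with the control shRNA, 1.19% and 0.585% with sh1 and 1.04% and 0.731% with sh2. Its intron 13 (2188516-2236491) had 5 and 5 boundary reads with the control shRNA, 0 and 0 with sh1 and 3 and 2 with sh2, all at 1 of the 2 boundaries (edgeR adjusted p = 0.888). Other genes overlap SMG5 (TMEM79) and SMG6 (HIC1 and SRR among them), and their 4 and 3 plus-strand introns were left out.

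The listed introns allowed exon skipping to be read for 3 exons of these genes, where 1 long intron spans the exon and 2 shorter ones end at it. Reads over the long intron are included in the counts of the shorter ones, since of introns that share an end the shorter was never below the longer in spliced reads (208992 of 208992 comparisons over all libraries). The 99-nt exon of UPF3A (chromosome 13, 114286302-114286400) was skipped in 61.7% and 62.8% of transcripts with the control shRNA, 52.1% and 63.6% with sh1 and 52.2% and 56.7% with sh2. The means were 62.3% ± 0.772 (SD, n = 2), 57.8% ± 8.17 (SD, n = 2) and 54.4% ± 3.22 (SD, n = 2). These shares divide the skipping reads by the mean count of the 2 shorter introns. In 3 of the 4 knockdown libraries skipping was below both controls, also at each shorter intron alone. In sh1 replicate 2 it was above them by the mean, but between them at each shorter intron alone. At the left one it was 72.7%, against 75.7% and 69.2% in the control, and at the right one 56.5%, against 52.1% and 57.5%. The level thus depends on the intron used. The difference of -6.14 percentage points had an exact two-sided permutation p of 0.4 (adjusted over 3 exons, 0.667), where the smallest p that 4 libraries against 2 allow is 0.133. The 39-nt exon of UPF3B (X chromosome, 119840646-119840684) was skipped in 93.8% to 95.7% of transcripts in every library, and the 156-nt exon of SMG1 (chromosome 16, 18896052-18896207) in 6.75% to 11.6%, on 4 to 13 skipping reads. Both overlapped between the groups (exact p = 0.533 and 0.667, adjusted 0.667 each).

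The RNA level of each gene was followed by its spliced reads, summed over introns that do not overlap. None of the 9 genes was called in any of the 4 comparisons by edgeR, nor was any of the 18164 genes tested (0.0% higher, 0.0% lower). For both shRNAs against the control DESeq2 called 0 of the 9, against 0.683% higher and 0.369% lower of all genes. None of the 9 had an unadjusted p under 0.05 for both shRNAs against the control, against 8.3% of all genes. The level in all 4 knockdown libraries lay above both controls for 1 of the 9 (10.3% of all genes) and below both for 1 (8.98%). The median log2 fold change was -0.04 over the 9 and -0.00249 over all genes. In bulk RNA, fewer cells with a transcript and less of it per cell cannot be told apart.

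UPF1 itself stood at 294 and 315 CPM with the control shRNA, 266 and 307 with sh1 and 301 and 310 with sh2. The groups overlapped and the log2 fold change was -0.04 (SE 0.126, edgeR adjusted p = 0.949), so no change in its total spliced RNA was detectable beside the change in introns 8 and 9. SMG5 was the gene below both controls in every knockdown library, at 272 and 252 CPM with the control shRNA, 221 and 234 with sh1 and 189 and 228 with sh2. Its log2 fold change of -0.27 (SE 0.132) had an unadjusted p of 0.0849 and an adjusted p of 0.626 (edgeR). UPF3A was the gene above both, at 45.9 and 45.8 CPM with the control shRNA, 53.6 and 47.5 with sh1 and 59.5 and 51.6 with sh2 (a log2 change of 0.21, SE 0.140, adjusted p = 0.697).

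The adaptor UPF2 stood at 71.0 and 69.8 CPM with the control shRNA, 65.2 and 78.7 with sh1 and 65.7 and 73.2 with sh2 (a log2 change of 0.01, SE 0.140). The kinase gene SMG1 ranged from 85.2 to 93.0 CPM in the control and from 60.6 to 105 in the knockdown, with its lowest and highest value with sh2 replicate 1 and sh1 replicate 2 (log2 fold change -0.08, SE 0.202). UPF3B stood at 63.1 and 69.7 CPM in the control and 52.0 to 71.5 in the knockdown (-0.08, SE 0.172), and SMG9 at 62.2 and 70.9 in the control and 60.9 to 80.1 in the knockdown (0.11, SE 0.145). SMG6 stood at 20.2 and 21.4 CPM in the control and 18.2 to 22.99 in the knockdown (0.02, SE 0.164), and SMG8 at 5.47 and 6.93 in the control and 5.04 to 6.72 in the knockdown (-0.06, SE 0.217). All of these overlapped between the groups, with edgeR adjusted p-values from 0.844 to 0.993.

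Compared per junction, so that genes with many introns do not weigh more, UPF1 and SMG5 were the most abundant of the 9 with the control shRNA, at 13.3 ± 0.642 and 12.5 ± 0.674 CPM per junction (SD, n = 2). They did not differ beyond their spread. UPF3B followed at 6.64 ± 0.464, UPF3A at 5.73 ± 0.0112 and SMG9 at 5.54 ± 0.515, with UPF3A and SMG9 within their spread of each other. UPF2 at 3.52 ± 0.0402 and SMG8 at 3.10 ± 0.517 lay close together, and the lowest were SMG1 at 1.54 ± 0.0962 and SMG6 at 1.23 ± 0.0508.

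**Figure D4:**
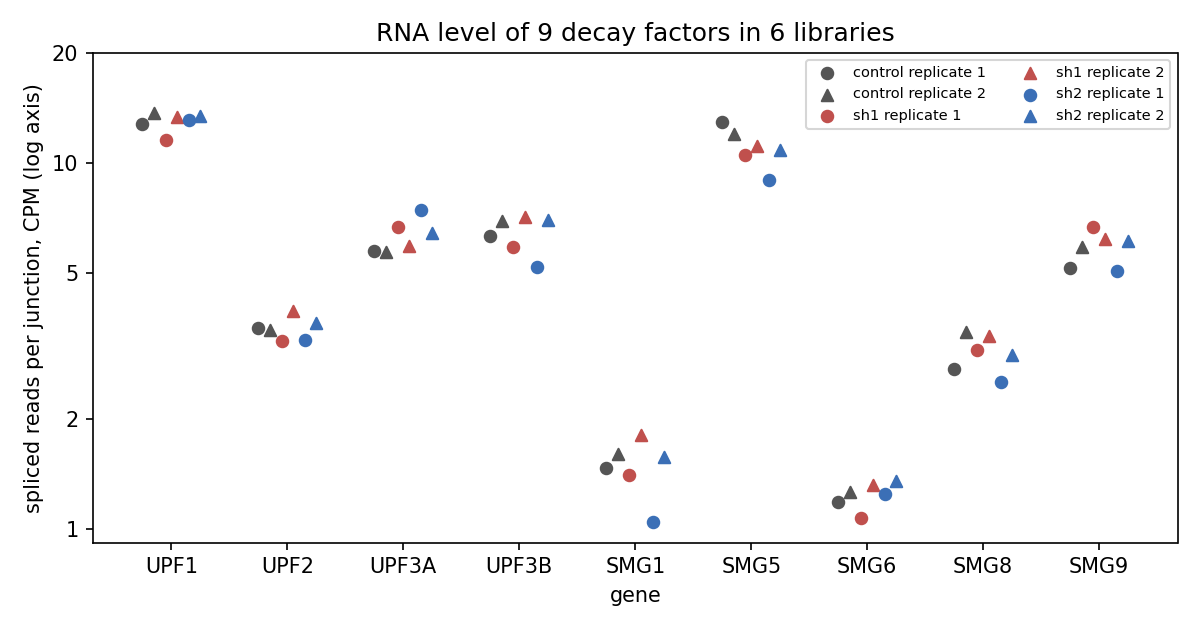
RNA level of the 9 genes. The x axis gives the gene, the y axis (log scale) the spliced reads per junction in CPM, and each point is 1 library (grey control, red sh1, blue sh2; circles replicate 1, triangles replicate 2). UPF1 and SMG5 lie highest and SMG1 and SMG6 lowest; the 4 knockdown points of SMG5 lie below both control points and those of UPF3A above.

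A pair of lists of other genes of the pathway were followed beside them. Among 20 other decay factors, 0 genes were called and 1 had an unadjusted p under 0.05: MAGOH, a core protein of the exon junction complex, at 289 and 269 CPM with the control shRNA, 218 and 241 with sh1 and 193 and 217 with sh2 (a log2 change of -0.36, SE 0.125, edgeR adjusted p = 0.576). The next smallest p was that of the helicase MOV10 (0.29, SE 0.123, adjusted p = 0.601). The list's median was 0.03, with 2 genes above (10.3% of all genes) and 4 below (8.98%) both controls in all knockdown libraries. Of its 313 tested introns, 2 were called higher for both shRNAs and 0 lower (0.33% and 0.0209% of all introns), both in NCBP1, the large subunit of the nuclear cap-binding complex. The first of these (chromosome 9, 97653909-97654879) was retained at 0.826% and 1.63% with the control shRNA, 38.5% and 15.3% with sh1 and 19.1% and 9.98% with sh2, a log2 fold change of 4.17 (SE 0.493, edgeR adjusted p = 9.13e-14). The second (97654945-97655701) was retained at 1.76% and 1.68%, 11.8% and 7.63%, and 12.8% and 9.63% in the same order (2.71, SE 0.473, adjusted p = 7.56e-06). An intron of the decapping enzyme DCP2 (chromosome 5, 112985987-112992120) was called with sh1 only (4.19, SE 0.835, adjusted p = 2.98e-04; with sh2 1.67, SE 0.984, adjusted p = 1), and the difference between the shRNAs was not called for it. As in UPF1, the replicate 1 library of each shRNA was the higher in the first NCBP1 intron, but there the control had the reverse order (0.826% and 1.63%).

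Among transcripts known as sensitive to the pathway, 19 of 20 had a spliced sum, and 0 were called, with 6 at an unadjusted p under 0.05 (8.3% of all genes), 3 of them higher (GADD45A, ARRDC3 and ATF4) and 3 lower (ZFAS1, GAS5 and SNHG12). The smallest p-values were those of GADD45A, a stress-response gene, at 89.9 and 96.5 CPM with the control shRNA, 140 and 115 with sh1 and 158 and 135 with sh2 (0.55, SE 0.147, edgeR adjusted p = 0.576), and of ARRDC3, at 3.27 and 4.31 CPM in the control and 6.13 to 16.5 in the knockdown (1.32, SE 0.427, adjusted p = 0.576). The 3 lower ones host small nucleolar RNAs and had log2 changes of -0.85 (SE 0.275), -0.51 (SE 0.185) and -0.52 (SE 0.198). ATF4, a transcription factor of the stress response, changed by 0.41 (SE 0.146). These 4, with adjusted p-values of 0.576 to 0.578 (edgeR), were named after their values were seen. ZFAS1 stood at 670 and 352 CPM with the control shRNA, 189 and 285 with sh1 and 348 and 331 with sh2. GAS5 stood at 2687 and 1888, 1204 and 1549, and 1883 and 1866 in the same order. In both genes the controls lay far apart, and sh2 replicate 1 was just below control replicate 2. Over the list, 3 genes (15.8%, against 10.3% of all genes) lay above and 4 (21.1%, against 8.98%) below both controls in all knockdown libraries, with a median of 0.10, so its members did not move one way. Of its 112 tested introns, 4 were called higher for both shRNAs and 0 lower, against 0.33% and 0.0209% of all introns, all 4 in ASNS, the asparagine synthetase gene (chromosome 7), with log2 fold changes from 1.58 to 1.94 and edgeR adjusted p-values from 0.00333 to 0.0322. The 2 of them that start at 97869814 overlap and so share reads.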

How the data were processed

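Tables of 6 libraries were used (2 control, 2 sh1, 2 sh2). Per the labels' protocols, polyA RNA was selected. The aligner, the counter, the strand setting and the source of the introns are not given in the sources used here. Per the file headers, the deposited tables hold counts of boundary and of spliced reads per intron, not normalised, a covered fraction (0 to 1) and a percent (MSI), here called retention, which recomputation matched to 2.8e-14. The submitters' processing notes name hg19, but 95.6% of introns lay inside a gene of the RefSeq table on GRCh38, against 62.6% and 62.9% after a shift of 100000 nt, so gene names and positions are given on GRCh38. Boundary against spliced reads were tested with edgeR 4.0.16 (R 4.3.3; quasi-likelihood, library as a factor, all 6 libraries sharing the spread, Benjamini-Hochberg over all introns). Gene sums, a stand-in for gene counts, were filtered with filterByExpr, scaled with TMM and tested likewise; CPM are relative to these sums. The SE given with edgeR results is the absolute log2 fold change divided by the square root of the test's F statistic. DESeq2 1.42.0 was an alternative. The edgeR fits, of introns and of gene sums, were run on simulated data, and DESeq2 was not.

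The 9 genes, the UPF1 intron and the gene lists were chosen with earlier results of these data known. Named in full were introns called in any comparison, the neighbours of the UPF1 intron, the intron with the smallest p of each gene, and of each list the genes called or else the 2 with the smallest p; introns with the highest retention or in the UPF1 run were added after their values were seen. Of the K562 markers, 0 of 11 genes were called (a result on their introns is not reported here); of the other cell markers, 0 of 7 genes and 0 of 85 introns were called. Counts at both boundaries can hold the same read, and 2 of the member introns, both in SMG6, repeat the spliced counts of a neighbouring gene's intron. Pooled retention took all tested introns of a gene. Reads shared by overlapping introns, which UPF3A, UPF3B, SMG1 and SMG6 have, can thus enter it repeatedly. Intervals on single shares are not printed, and depth limits introns with few boundary reads.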

Additional observations from a re-analysis of the deposited data

How the results depend on the processing

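The number of member introns called for both shRNAs against the control (2) was 1 with a minimum of 50 reads (intron 8) or with the smaller boundary count doubled (intron 9). Among introns covered to at least 0.95 it was 0. There 48 member introns were tested in each comparison and intron 9 was left out, so only intron 8 lost its call by the test. With DESeq2 the number was 0. Leaving out each library in turn gave 1 to 3. It was 1 without control replicate 1, control replicate 2, sh1 replicate 1 or sh2 replicate 1, and 3 without sh1 replicate 2 or sh2 replicate 2. For sh1 (1) it was 0 with the covered fraction or DESeq2 and 0 to 1 without a library (0 without control replicate 2 or sh1 replicate 1); with the smaller boundary count it was 1, but intron 9 in place of 8. For sh2 (2) it was 0 with the covered fraction or DESeq2, 1 with the smaller boundary count (intron 9) and 0 to 3 without a library (0 without control replicate 2 or sh2 replicate 1, 1 without control replicate 1). The change of UPF1 intron 8 was 2.66 among well-covered introns, 2.73 with the smaller boundary count and 2.69 with DESeq2, no longer past the threshold in these 3, and 2.03 to 3.40 without a library, past it each time. The cause of these losses was not tested. Gene sums called 0 members in every setting. UPF3A, SMG5 and SMG9 kept their direction in every setting. The sum of UPF2 turned to -0.0012 without a filter on low counts, -0.0053 with library totals, -0.010 with DESeq2 and -0.0010 without repeated introns. Without a library, sums ran from -0.11 to 0.0086 for UPF1, -0.077 to 0.064 for UPF2, -0.20 to 0.012 for UPF3B, -0.26 to 0.038 for SMG1, -0.069 to 0.088 for SMG6 and -0.22 to 0.12 for SMG8.

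The experiment numbers gave a replicate block. Deviations from the group means of same-numbered libraries correlated at 0.051 to 0.106 over introns and 0.187 to 0.283 over genes, and with 2 numbers these are shared numbers only. With the replicate block, 3 member introns were called for both shRNAs (UPF1 introns 7, 8 and 9), 1 for sh1, 3 for sh2 and 0 between them, intron 8 had a log2 fold change of 2.71, intron 7 of 1.29 (adjusted p = 0.00561), and 0 gene sums were called.

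Over all introns, 443 were called higher and 28 lower for both shRNAs, against 206 and 7 with DESeq2, 208 and 4 among well-covered introns, 90 and 2 with the smaller boundary count and 245 and 24 without control replicate 2. Over all genes edgeR called 0 and DESeq2 124 higher and 67 lower.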
